A study of Mus musculus with 12 samples.

Results

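The open chromatin of purified mitotic chromosomes was compared with that of asynchronous, mostly interphase, cells of the same 2 mouse embryonic stem cell (ESC) lines. The comparison rests on 8 of the 12 ATAC-seq peak lists of the series, chosen by their labels: 4 lists from flow-sorted mitotic chromosomes, holding 217711 peaks, and 4 from asynchronous cells, holding 184917 peaks. Each preparation was assayed in 2 libraries of a wild-type (WT) line and 2 libraries of a Suv39h double null (Suv39h dn) line, which lacks the histone H3K9 methyltransferases Suv39h1 and Suv39h2. Genotype was used only as a stratum, and each genotype is represented by 1 line. All were grown with fetal calf serum and LIF. Asynchronous samples were nuclei of 50000 cells opened in a detergent buffer that held Igepal, Tween-20 and digitonin. For chromosomes, cells were held in mitosis with demecolcine, which stops microtubule assembly, at 0.1 µg/ml for 6 h, collected by shake-off and lysed in a polyamine buffer, and 2000000 chromosomes were sorted after staining with Hoechst 33258 and chromomycin A3. Arrest, release of chromosomes, staining, sorting and input therefore differ together between the groups, and these 8 lists cannot tell their parts apart. Lists of whole mitotic cells, arrested but not sorted, are described at the end and entered no test. Nothing in the labels says that the 2 libraries of a group came from separate cultures, so the spread between them may be technical.

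ATAC-seq reads out where the transposase Tn5 can insert sequencing adapters into DNA, and a peak is a stretch with more fragments than its surroundings. In interphase cells the strongest peaks usually lie over the nucleosome-free stretch just upstream of active promoters, over enhancers bound by transcription factors, and over sites of the insulator protein CTCF. In mitosis chromatin condenses, transcription largely stops and many factors leave the DNA, while accessibility at many promoters is known to persist. Pluripotent cells rely on Oct4 (Pou5f1) and Sox2, which bind joined DNA motifs at enhancers.

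Lists held 22344 to 80602 peaks in asynchronous libraries and 44885 to 67027 on chromosomes, and the log2 number of peaks overlapped between preparations (difference 0.42, exact permutation p = 0.444). The median summit held 5 to 8 fragments in either preparation, and the lowest local background in a library was 0.149 to 0.306 fragments per base in asynchronous cells and 0.187 to 0.328 on chromosomes. The median fold enrichment of a peak over background was lower on chromosomes, at 4.21 to 4.84, than in asynchronous cells, at 5.12 to 6.13. Most measures were also taken in lists cut to the 22344 strongest peaks of each library. Dinucleotide steps, 50-bp bins round starts and distances at kept genes were taken over all peaks only. So were motif shares at distal summits or by GC, and the composition of kept, lost and gained regions. Of 9 ESC marker genes, 4 to 8 had a summit near their start in an asynchronous library and 3 to 6 in a chromosome library. Tdgf1 had none in any library. Among markers of other cell types, 0 to 2 of 5 fibroblast genes had one in an asynchronous and 1 to 2 in a chromosome library. In the same order the numbers were 0 to 1 and 0 of 3 blood genes, and 0 and 0 to 2 of 2 endothelial genes. They were 0 to 2 and 1 to 3 of 3 trophoblast genes, and 0 to 3 and 1 to 3 of 3 primitive endoderm genes. The part of such cells in the results was not tested. Tests exchanged preparation labels within genotype (36 arrangements, two-sided), and the smallest p they can give is 0.0556, so no comparison could pass 0.05. Where a p of 0.0556 is given below, no other labelling gave a larger difference.

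Sequences under some strong peaks are printed as examples. Regions farther than 1 kb from any annotated transcript start are called distal, and those with a peak in all 4 asynchronous lists and in no chromosome list are called lost, the reverse gained, and those in all 8 lists kept. The following stretches reach 50 bases to either side of a summit and are read from the plus strand of the GRCm38 (mm10) reference, and all lie outside annotated exons. They include an Oct4-Sox2 motif at a lost site, and short units repeated head to tail at gained ones. Such repeats, as counted further below, made up 16.9% of distal gained, 19.3% of distal kept and 0.597% of distal lost regions. The strongest lost region held none of the motifs in the printed stretch. CTCF motifs stood at lost as well as at kept regions, so one of each is shown. Capitals mark matches to the motifs listed further below, and the 3 regions named by a motif were picked after their values were seen.
Lost, strongest, chr1:140429408-140429508, inside Kcnt2: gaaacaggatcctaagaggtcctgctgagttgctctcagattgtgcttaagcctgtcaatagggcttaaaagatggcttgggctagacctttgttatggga
Lost, with an Oct4-Sox2 motif, chr2:40910917-40911017, inside Lrp1b: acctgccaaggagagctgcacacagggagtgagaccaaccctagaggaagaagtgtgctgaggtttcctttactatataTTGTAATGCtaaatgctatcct
Lost, with a CTCF motif on the minus strand, chr1:146322995-146323095, between genes: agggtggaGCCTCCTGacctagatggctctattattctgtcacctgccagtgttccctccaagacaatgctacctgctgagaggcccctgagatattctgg
Gained, strongest, chr14:8501885-8501985, inside 4930452B06Rik: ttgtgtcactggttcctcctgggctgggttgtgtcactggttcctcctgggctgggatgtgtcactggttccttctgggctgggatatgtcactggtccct
Gained, next strongest, chr11:66421085-66421185, inside Shisa6: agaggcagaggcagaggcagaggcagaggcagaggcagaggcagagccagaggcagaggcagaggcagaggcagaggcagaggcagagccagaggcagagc
Gained, the fourth strongest, chr12:117588480-117588580, inside Rapgef5: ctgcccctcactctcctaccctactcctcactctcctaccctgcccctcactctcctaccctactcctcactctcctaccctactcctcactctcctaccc
Kept, strongest, chrX:143483009-143483109, between genes: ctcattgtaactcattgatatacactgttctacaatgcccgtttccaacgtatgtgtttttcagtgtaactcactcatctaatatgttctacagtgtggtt
Kept, next strongest, chr6:103649151-103649251, inside Chl1: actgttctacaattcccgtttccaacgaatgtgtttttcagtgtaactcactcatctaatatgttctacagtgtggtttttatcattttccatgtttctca
Kept, with a CTCF motif, chr11:54140085-54140185, between genes: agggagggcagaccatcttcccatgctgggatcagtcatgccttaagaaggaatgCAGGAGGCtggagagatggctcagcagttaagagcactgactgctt

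At the lost region inside Lrp1b, the fold enrichment was 12.8 and 21.5 for WT and 10.9 and 21.3 for Suv39h dn asynchronous libraries, and no chromosome list held a peak there. At the lost region inside Kcnt2 the fold was 16.8, 24.8, 14.9 and 22 in the same order. The next strongest lost region, inside D5Ertd579e on chromosome 5 and not printed, was itself a repeat, with 97.0% of bases matching the base 33 positions away. The gained regions had the opposite pattern: inside Shisa6 the fold was 25.5 and 32.5 on WT chromosomes and 28.6 and 21.0 on Suv39h dn chromosomes, and inside Rapgef5 it was 26.7, 25.1, 27.7 and 22.8. Within 100 bp of the Shisa6 summit 96.8% of bases matched the base 12 positions away, and in the Rapgef5 region 94.4% matched the base 40 positions away. The strongest gained region, on chromosome 14, is a less exact repeat, with 58.4% matching at 28 bases. The study's methods state that peaks on the ENCODE blacklist, a list of regions prone to mapping artefacts, were removed. Whether the deposited lists were filtered so was not tested, a limit that touches both strongest kept regions. They stood at about the same height in every library, with folds of 52.5 to 60.8 on chromosome X and 48.1 to 59.8 on chromosome 6. They shared 43 of 90 overlapping 12-letter words with each other, and the 100 bp to either side of the chromosome 6 summit held a CENP-B box, the motif of a centromere protein that binds minor satellite DNA. The kept region with the CTCF motif had folds of 20.2 to 28.4 in asynchronous cells and 19.4 to 36.8 on chromosomes. At the lost region with that motif the asynchronous folds were 9.86, 17.3, 10.1 and 16.4.

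Around start sites, a smaller share of summits stood upstream of the start in chromosome lists. In asynchronous cells 70.1 and 65.7% of WT and 70.7 and 62.4% of Suv39h dn start-site summits lay upstream of the nearest start, where start-site means within 1 kb of the start of any annotated transcript. On chromosomes the shares were 36.6 and 37.9% for WT and 36.8 and 38.2% for Suv39h dn. The 4 chromosome libraries lay within a narrow range, far below every asynchronous library, and the means were 37.4% ± 0.764 and 67.2% ± 3.91 (SD, n = 4 each), a difference of -29.9 percentage points (exact permutation p = 0.0556, the smallest possible). The difference was -30.7 points for WT and -29.1 for Suv39h dn (exact permutation p of the difference between lines = 0.722). In equal lists the ranges were 70.1 to 72.2% and 36.1 to 37.9%.

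With positions counted from the start in the direction of transcription, negative upstream, the median start-site summit lay at -46 to -33 bp in asynchronous libraries and at 69 to 76 bp in chromosome libraries. The 50-bp bin just upstream of the start, from -50 to -1, was the fullest in each asynchronous library and held 18 to 23.9% of its start-site summits. On chromosomes the fullest bin was the next one, from 0 to 49, and held only 8.39 to 9.34%. The 100 bp just upstream held 31.1 to 40.3% of asynchronous but 10.9 to 12.2% of chromosome summits, while the first 200 bp downstream held 17.2 to 18.7% and 25.5 to 28.3%. Around starts of protein-coding transcripts the GC content of the reference is highest in that same bin from 0 to 49, at 59.1%. The neighbouring bins are close to it, at 58.6% from -50 to -1 and 58.7% from 50 to 99. The share of all summits that fell within 1 kb of a start did not separate the preparations: it was 25.1 to 36.2% in asynchronous libraries and 26.7 to 35% on chromosomes (difference -0.48 points, exact permutation p = 0.944). Its direction changed in equal lists (0.93 points), at 2.5 kb and without any of 4 single libraries, replicate 1 of each group, where it was 0.72 to 1.60.

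**Figure D1:**
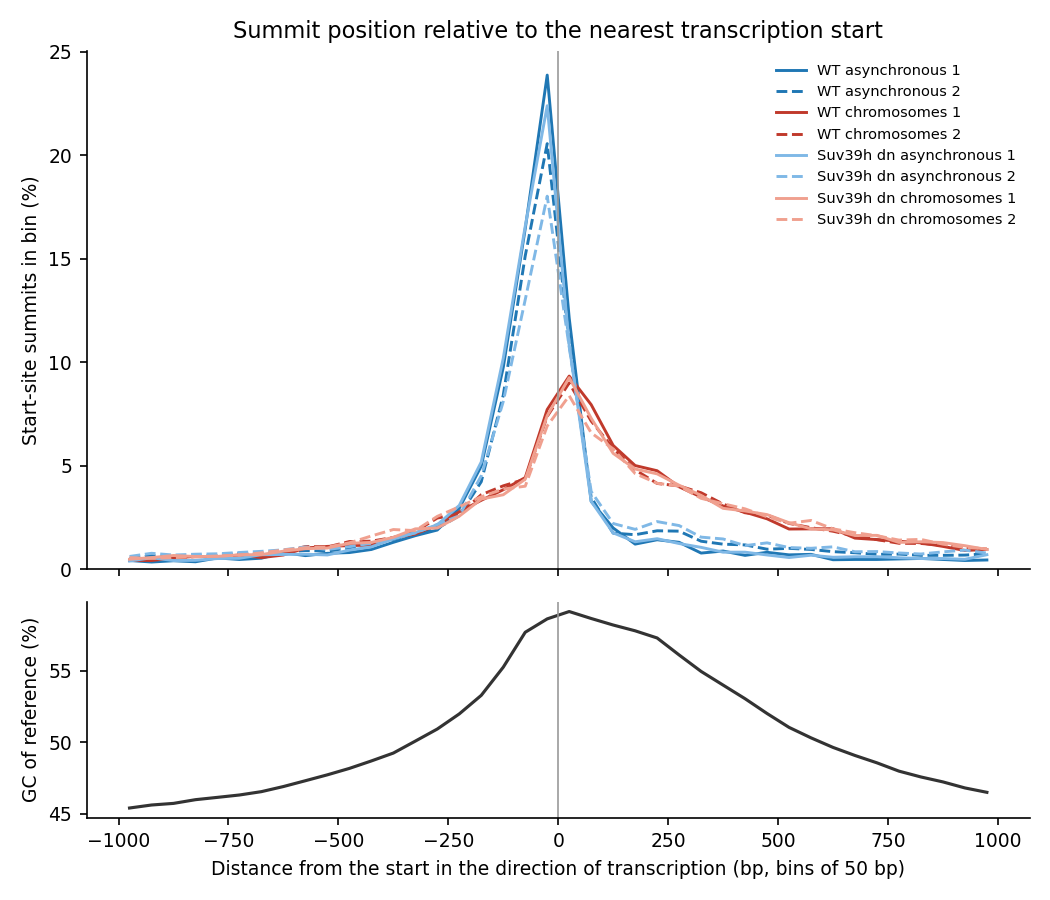
Percent of start-site summits in 50-bp bins from 1 kb upstream to 1 kb downstream of the nearest transcript start (bp), 1 line per library, above the GC percent of the reference in the same bins. The 4 asynchronous lines peak just upstream of the start at 18 to 23.9%, while the 4 chromosome lines are flatter and peak just downstream at 8.39 to 9.34%.

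The 1959 protein-coding genes with a summit in all 8 libraries show a displacement in the same direction within one set of genes, but one that ends near the start. Their strongest summit lay at a median of -72, -73, -76 and -77 bp from the gene start in the 4 asynchronous libraries and at 3, 6, 9 and 13 bp in the chromosome libraries. It was upstream in 79.2 to 81.1% of these genes in asynchronous and in 46.3 to 48.7% in chromosome libraries. The chromosome summit was farther downstream in 1315 of them (67.1%) and farther upstream in 640, with a median shift of 70 bp. Summit positions were also more scattered on chromosomes. Between asynchronous libraries the summits of a kept gene differed by a median of 24 to 44 bp over the 6 pairs, between chromosome libraries by 188 to 209 bp, and between preparations by 265 to 296 bp. At Isl1, which encodes a LIM homeodomain factor of motor neuron and heart progenitors, the 4 asynchronous summits lay at -34 to -11 bp, and the chromosome summits at -373 and -348 bp for WT and at 438 and 449 bp for Suv39h dn. At Psma2, which encodes a proteasome core subunit, the asynchronous summits lay at -227 to -19 bp and the chromosome summits at 126 to 167 bp. At Smarca5, the ATPase of ISWI remodelling complexes, all 8 summits lay within 36 bp of the start, and at Setdb2, an H3K9 methyltransferase gene, all 8 lay at -140 to -54 bp.

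Chromosome peaks stood in DNA richer in G and C. Over all peaks the DNA within 100 bp of summits had a GC content of 54.0 and 53.4% for WT and 53.0 and 52.9% for Suv39h dn asynchronous cells, against 57.5 and 57.9% on WT and 57.5 and 57.9% on Suv39h dn chromosomes. No library of one preparation reached the range of the other (difference 4.37 points, exact permutation p = 0.0556). Most of it lay away from starts. Distal summits had 50.4% ± 0.421 GC in asynchronous cells and 56.1% ± 0.195 on chromosomes (SD, n = 4 each; difference 5.71 points, exact permutation p = 0.0556), while summits near starts had 59.7% ± 0.6 and 61.3% ± 0.505 (1.60 points, exact permutation p = 0.0556). The distal difference was 5.57 points for WT and 5.86 for Suv39h dn (exact permutation p of the difference between lines = 0.556), and equal lists gave ranges of 49.7 to 50.3% and 56.9 to 57.3%. For comparison, windows of the same length spaced 10 kb apart over the genome averaged 41.7% GC.

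AT-rich distal peaks were nearly missing from the chromosome lists. Distal summits under 45% GC made up 20.5 to 22.4% of distal peaks in asynchronous cells and 0.695 to 0.961% on chromosomes, and those of at least 60% GC made up 6.60 to 13.1% and 22 to 23.3%. Among dinucleotide steps at distal summits, CC/GG took 14.4 to 14.9% in asynchronous cells and 18.7 to 19.1% on chromosomes, and AA/TT 12.8 to 13.3% and 8.53 to 8.69%. The CpG step, the target of DNA methylation in mammals, differed less: over all peaks there were 2.85 to 3.40 CpG per 100 bp in asynchronous cells and 3.02 to 3.34 on chromosomes, and the ranges overlapped (difference 0.12, exact permutation p = 0.444). In equal lists they no longer overlapped, at 3.01 to 3.40 and 3.60 to 4.07 (exact permutation p = 0.0556). At distal summits alone the CpG content was 1.59 to 1.91 and 2.05 to 2.23 per 100 bp, against 0.825 over the genome.

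The surroundings differed in the same direction on a larger scale, with less separation. Summits in the most GC-rich quintile of 100-kb windows made up 28.7 to 35.1% in asynchronous libraries and 36.7 to 46.3% on chromosomes (difference 9.63 points, exact permutation p = 0.0556). With peaks of q at or under 1e-05 only, the difference was 0.85 points and the ranges overlapped. Exons held 11.7 to 14.8% of asynchronous and 18.3 to 21.9% of chromosome summits.

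**Figure D2:**
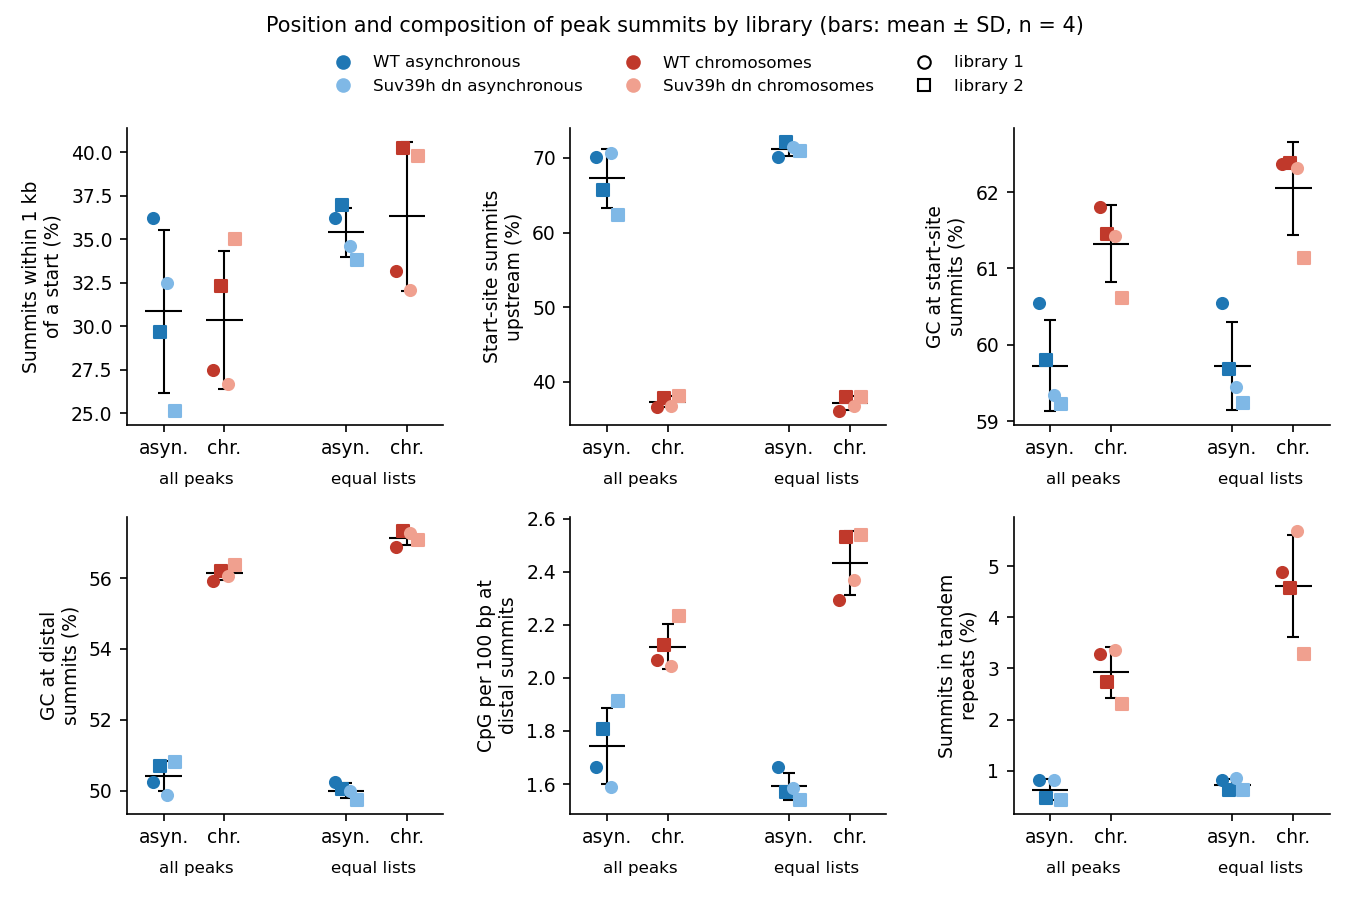
Values of 6 measures at peak summits in each library (points, by group), over all peaks and in equal lists, with lines and bars at the mean ± SD of 4 libraries; the axes do not start at 0. Distal GC and the share upstream of the start separate the preparations, at means of 50.4 against 56.1% and 67.2 against 37.4% over all peaks, while the share within 1 kb of a start overlaps.

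Tandem repeats were commoner under chromosome peaks. A summit was counted as a tandem repeat when at least 70% of the bases within 100 bp matched the base at one fixed distance of 2 to 60 positions, a measure chosen after the sequences above were seen and so given with no test. Such summits made up 0.810 and 0.473% of WT and 0.810 and 0.424% of Suv39h dn asynchronous peaks, against 3.29 and 2.74% on WT and 3.36 and 2.30% on Suv39h dn chromosomes. Evenly spaced windows of the genome, at 0.666%, lay inside the asynchronous range. Among the 1000 strongest summits of each library the share was 3.1 to 5.5% in asynchronous cells and 20.8 to 25.3% on chromosomes. Requiring an 80% match left 0.256 to 0.518% and 1.61 to 2.44%. Outside tandem repeats the distal GC content was 49.9 to 50.8% and 55.8 to 56.4%, close to the values over all distal peaks. The CENP-B box was rare in every list, with 14 to 19 summits per asynchronous and 14 to 26 per chromosome library.

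Transcription factor motifs were found under fewer chromosome summits. The 11 short motifs were searched on both strands, as exact letters with N for any base, within 100 bp of each summit. They were CTCF (CAGGNGGC), Oct4-Sox2 (TTGTNATGC), the Oct octamer (ATGCAAAT), NRF1 (GCGCATGCG), NFY (CCAAT), Sp/Klf (GGGCGG), Klf (GGGTGTGGC), ETS (CCGGAAGT), YY1 (AANATGGCG), TEAD (ACATTCC) and CRE (TGACGTCA). The octamer shares letters with the Oct4-Sox2 motif, so a site can match both, and a match is not proof of binding. The shares of genome windows that held them were, in that order, 2.35, 0.521, 1.78, 0.0317, 29.7, 1.95, 0.268, 0.118, 0.318, 2.79 and 0.105%. For 10 of the 11 motifs every chromosome library lay below every asynchronous library (exact permutation p = 0.0556, 0.0611 after Benjamini-Hochberg adjustment over 11). With peaks of q at or under 1e-05 only, this held for 8, since the ranges of Sp/Klf (exact permutation p = 0.0556) and CRE (exact permutation p = 0.167) then overlapped.

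Over all peaks, with no matching on GC, the Oct motifs had the largest ratios of the 11. The Oct4-Sox2 motif was under 2.60 and 2.06% of WT and 2.49 and 1.80% of Suv39h dn asynchronous summits, but under 0.330 and 0.328% on WT and 0.296 and 0.218% on Suv39h dn chromosomes. All 4 chromosome values lay below the share of genome windows, and the mean was 7.62 times lower than in asynchronous cells. The octamer was under 2.93 to 3.24% of asynchronous and 0.275 to 0.326% of chromosome summits, 10.5 times lower. The letters of both in reverse order, a control for single bases only, were rare, with means of 0.0759 and 0.0518% for Oct4-Sox2 and 0.0567 and 0.0264% for the octamer. Reversed, both hold a CpG that the motif lacks, so their rarity is no control for dinucleotide steps. The TEAD motif, bound by the DNA-binding partners of Yap in Hippo signalling, was under 3.65 to 3.86 and 1.88 to 1.96%, also below the genome share on chromosomes.

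GC-rich promoter motifs were also under fewer chromosome summits, although those summits were GC-richer. The Sp/Klf box was under 18.9 to 25.5% of asynchronous and 13.8 to 15.7% of chromosome summits. Its reversed letters also had a lower share on chromosomes, with means of 22.8 and 15.8%. The ETS motif was under 1.38 to 2.37 and 0.643 to 0.715%, and its reversed letters went the other way, with means of 0.835 and 1.22%. NRF1, a factor of housekeeping promoters, matched 0.431 to 0.895 and 0.241 to 0.283%, a ratio of 2.57, and its reversed letters also had a lower share on chromosomes, with means of 0.0263 and 0.0116%. Reversed letters were likewise lower for NFY (20.1 and 17.2%), YY1 (0.164 and 0.101%) and TEAD (2.11 and 1.99%) and higher for CTCF (2.16 and 3.41%), Klf (0.133 and 0.159%) and CRE (0.863 and 0.924%). Reversing adds a CpG to CTCF, Klf and NRF1 and removes that of ETS and CRE, so these are not matched in CpG. CTCF matched 8.79 to 9.87 and 6.5 to 6.96%, 1.37 times lower on chromosomes and on both sides well above the genome share. YY1 was the exception, at 2.82 to 5.11 and 3.25 to 3.46% with overlap (exact permutation p = 0.5). In equal lists YY1 was higher on chromosomes by 1.25 points without overlap, at 2.44 to 3.14 and 3.71 to 4.31% (exact permutation p = 0.0556). Over all peaks without Suv39h dn asynchronous replicate 2 it was higher by 0.11 points. At distal summits alone NRF1, NFY, YY1 and CRE overlapped as well, while Oct4-Sox2 was under 2.21 to 3.84 and 0.257 to 0.369%.

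Since the preparations differed in GC content, the motif shares were also taken among summits of like GC, as a description added after the data were seen. Among summits of 50 to 55% GC all 11 motifs were lower on chromosomes without overlap, as they were from 55 to 60%. From 50 to 55% GC the octamer was under 2.03 to 2.53% of asynchronous and 0.375 to 0.462% of chromosome summits, the Oct4-Sox2 motif under 1.01 to 1.33 and 0.308 to 0.566%, CTCF under 9.38 to 11.2 and 4.64 to 5.03%, and the Sp/Klf box under 11.2 to 12.5 and 3.24 to 3.98%. Matching on GC thus left a smaller ratio for the Oct4-Sox2 motif, 2.48, and larger ratios for CTCF, 2.15, and Sp/Klf, 3.42. In this range the octamer had the largest ratio, 5.42, and Oct4-Sox2 ranked below NRF1 (4.46), YY1 (4.14), ETS (4.09), Sp/Klf and Klf (2.89). From 55 to 60% YY1 had the largest, 5.95, above the octamer at 5.71. From 45 to 50% GC NFY was the only motif higher on chromosomes without overlap, at 31.2 to 35.7% against 27.9 to 30.3%, while NRF1 and CRE overlapped. The octamer had the largest ratio there, 7.33, and Oct4-Sox2 the next largest, 3.95. From 60 to 65% Oct4-Sox2 and NFY overlapped and the other 9 were lower.

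**Figure D3:**
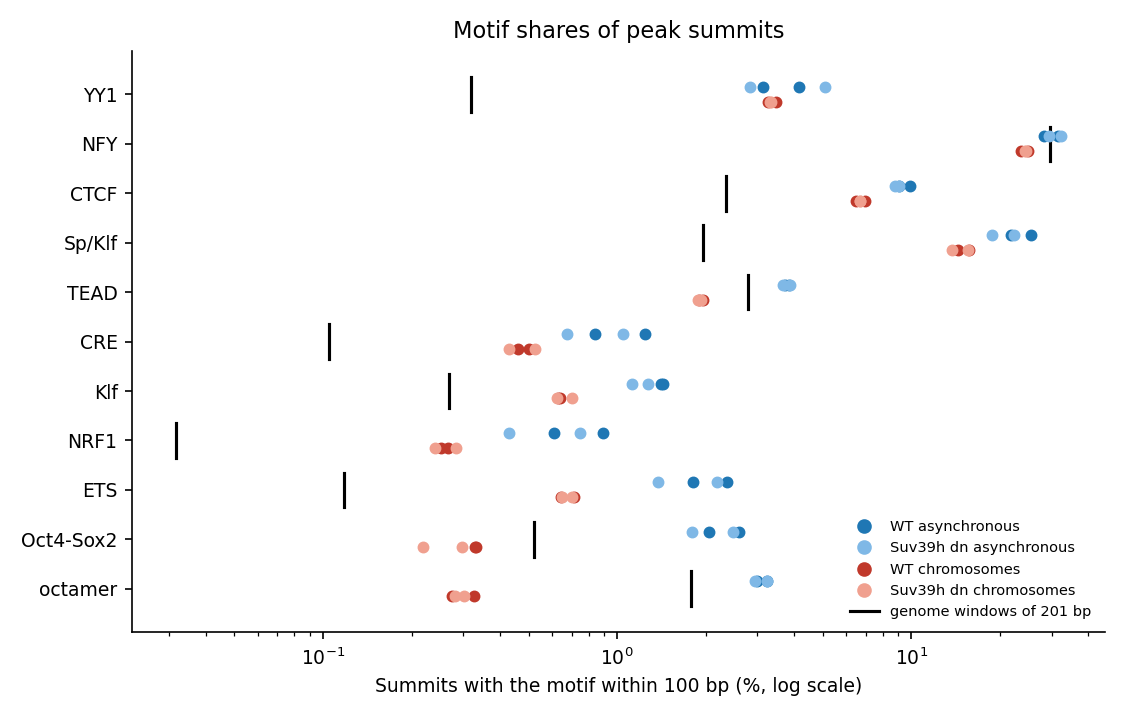
Percent of summits with each of 11 motifs within 100 bp (log axis), one point per library, asynchronous cells and chromosomes in separate colours, with the share of genome windows marked. Over all peaks every motif except YY1 is lower on all 4 chromosome libraries, and the octamer, at 0.275 to 0.326%, lies below its genome share of 1.78%.

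Asynchronous peaks that were also found on chromosomes lay mostly near starts and in GC-rich DNA. Of the 10432 regions with a peak in all 4 asynchronous lists, 4785 were near a start and 5647 were distal. At least 1 chromosome list held a peak at 60.9% of the first and 16.8% of the second, and all 4 did at 13.8 and 4.71%. In the other direction, 48.9% of the 6177 regions in all 4 chromosome lists were in at least 1 asynchronous list, with a smaller split, of 53.7% for the 2968 near a start and 44.5% for the 3209 distal ones. By pairs of libraries, 53.5% of the peaks of an asynchronous list were found in another asynchronous list on average and 28% of the peaks of a chromosome list in another chromosome list, but 11.1% of asynchronous peaks in a chromosome list and 9.04% the other way. In equal lists the 4 means were 54.8, 29.4, 8.84 and 9.01%, so the lists of chromosomes were also less alike among themselves.

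The share of asynchronous peaks found in a chromosome list was 1.26% at 40 to 45% GC, 5.26% at 50 to 55%, 14.1% at 55 to 60% and 30.1% at 60 to 65%. Between asynchronous libraries it was 49 to 57.2% over the same range of GC. Peaks under 40% GC stood apart: chromosome lists held as few as 90 of them, yet a mean of 89.1% were found in an asynchronous list. Both strongest kept regions shown above, at 36.6 and 34.7% GC in the printed stretch, are of this kind. Some summits under 40% GC shared a 25-letter word with the mitochondrial genome. They numbered 11 to 16 per chromosome list (10.1 to 17.8%) and 11 to 17 per asynchronous list (0.548 to 1.84%). Of 232122 merged regions, near starts or distal, only 6562 were lost, 3148 gained and 1124 kept. At distal regions, the 4694 lost ones had a median of 48.8% GC and the 1779 gained ones 57.2%. Tandem repeats made up 0.597% of the distal lost, 16.9% of the gained and 19.3% of the 290 kept regions.

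**Figure D4:**
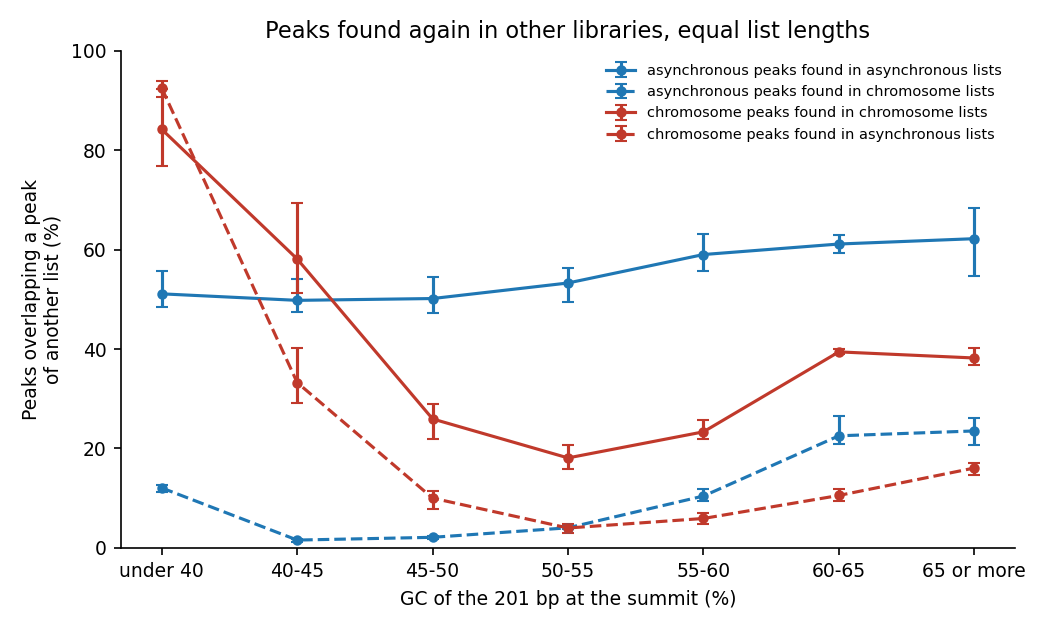
Percent of the peaks of a list that overlap a peak of another list by at least 1 bp, in equal lists, by GC percent at the summit, with points and bars for the mean and range over 4 lists. Asynchronous peaks found in chromosome lists (dashed blue) go from 1.56% at 40 to 45% GC to 22.5% at 60 to 65%, while between asynchronous lists (solid blue) the means stay between 49.8 and 62.2%.

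Among 21938 protein-coding genes, 1959 were kept, with a summit within 1 kb of a start in all 8 libraries (8.93%), 511 were lost (2.33%) and 479 were gained (2.18%), where lost means all 4 asynchronous and no chromosome library and gained the reverse. The share of genes with a summit was 31.3 to 55.5% in asynchronous libraries and 37.2 to 50.9% on chromosomes (difference 0.72 points, exact permutation p = 1). In equal lists 825 were kept (3.76%), 982 lost (4.48%) and 484 gained (2.21%), and the share of genes with a summit was then lower on chromosomes, at 24.3 to 29.4% against 29.5 to 32.5%. Kept genes had CpG-rich starts, with a median of 6.99 CpG per 100 bp within 500 bp of the start, against 4.2 at lost genes, 5.69 at gained genes and 4.10 over all genes. In equal lists the medians were 7.29 at kept, 4.75 at lost and 7.34 at gained genes, so gained genes were then no poorer in CpG than kept ones. Genes absent from a list had no peak past the peak caller's threshold, which is not the same as closed chromatin.

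The strongest kept gene starts included Smarca5, with folds of 15.7 to 21.5 in asynchronous cells and 7.14 to 12 on chromosomes, and Mphosph8, which encodes a reader of H3K9 methylation in the HUSH silencing complex, with folds of 17.1 to 27.4 and 32.0 to 37.3. At Mphosph8 all summits lay 598 to 618 bp downstream of the start. Phf21a had folds of 21.9 to 30.8 and 28.4 to 37.1 at 605 to 610 bp downstream, over a repeat with 73.8% self-match at 6 bases. Glcci1, Asmt and Rsph3a made up the rest of the first 6. The strongest lost starts were those of Cep128, a centriole protein gene, with folds of 14.6, 23.8, 15.8 and 25.0, of the zinc finger gene Zfp120 and its neighbours Gm14124 and Gm14139 on chromosome 2, of 2610044O15Rik8 and of Flrt3, a cell adhesion gene. Those 6 asynchronous folds ranged from 9.99 to 25.0, so strong promoters were among those without a chromosome peak. The strongest gained starts had lower folds, 6.55 to 13.4: Gm2916, St6galnac1, Foxk2, Tsnax, Lrrc1 and Zfp592. The Lrrc1 summits lay at -516 to -396 bp, and the strongest of them had 78.9% self-match at 40 bases.

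Of 30 pluripotency genes 3 were kept (10.0%), 1 was lost (3.33%) and 1 was gained (3.33%), near the shares over all genes. Tet1, which oxidises methylated cytosine, was kept with folds of 5.90 to 10.8 in asynchronous cells and 4.96 to 6.03 on chromosomes, as were Sall4 and Stat3. Dppa2, an ESC gene that primes other promoters, was lost, with folds of 5.31, 9.45, 7.66 and 10.9 in asynchronous libraries. Its start is poor in CpG, at 1.10 per 100 bp, but so were those of kept Tet1 and Sall4, at 0.699 and 2.00. The start of kept Stat3 had 6.29. Klf4 was gained, with folds of 5.67, 3.56, 4.6 and 4.52 and summits spread from 54 to 933 bp downstream, and 1 of the 4 remained in equal lists. Sox2 had a summit in 4 asynchronous and 3 chromosome libraries, Esrrb in 4 and 2, Pou5f1 in 3 and 2, and Nanog in 2 and 0. At Sox2 the asynchronous summits lay at -554 to -459 bp, and the chromosome summits at 635, 644 and -733 bp. All 4 asynchronous libraries held 10 of the 30 genes (33.3%, against 22.3% over all genes) and all 4 chromosome libraries 7 (23.3%, against 21.1%).

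More genes of cell division and housekeeping were in all 4 asynchronous than in all 4 chromosome libraries. Over all genes the shares were 22.3 and 21.1%, with 2.33% lost, and no test compared these lists with other genes. Of 30 mitosis and chromosome structure genes 17 (56.7%) were in all 4 asynchronous and 7 (23.3%) in all 4 chromosome libraries. The condensin genes Ncapg, Ncapd2 and Ncapd3 and the kinase gene Aurka were kept, and the spindle checkpoint genes Bub3 and Bub1b were lost. At Bub1b the folds were 4.76, 12.7, 5.60 and 13.1, with summits at -56 to -6 bp. Of 39 proteasome genes 16 (41.0%) and 8 (20.5%) were in all 4, with Psmd10 and Psmd8 lost and Psmb11, the thymus-specific subunit gene, gained at folds of 4.40 to 4.58. Psmb11 was in no chromosome library in equal lists. Of 80 cytosolic ribosomal protein genes 24 (30.0%) and 12 (15.0%) were in all 4. Rpl15, Rpl37, Rps29, Rpl30 and Rpl31 were kept, and Rpl18 and Rpl36a were among those lost. At Rpl18 the asynchronous folds were 5.05 to 8.58. In equal lists the numbers in all 4 were 14 and 3 for mitosis genes, 14 and 3 for proteasome genes and 18 and 5 for ribosomal protein genes, while over all genes they were 3924 and 1985.

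Of 22 H3K9 methylation and HP1 genes, 8 (36.4%) were in all 4 asynchronous and 9 (40.9%) in all 4 chromosome libraries, against 22.3 and 21.1% over all genes. In equal lists the numbers were 8 (36.4%) and 3 (13.6%), against 17.9 and 9.05% over all genes, so they were no longer near even. Cbx5, which encodes HP1α, Setdb2 and Kdm4a, an H3K9 demethylase gene, were kept, and Atrx, a remodeller of heterochromatin, was lost with folds of 5.62, 10.1, 4.14 and 16. Suv39h2 had a summit in 1 asynchronous and 4 chromosome libraries, also in the line that lacks the enzyme, and Suv39h1 in 1 and 0. Peaks show where DNA was open and do not check the deletion.

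For developmental genes listed as poised, whose expression was not measured here, the difference between preparations depended on list length. Of 30 poised lineage transcription factor genes 3 (10.0%) were in all 4 asynchronous and 7 (23.3%) in all 4 chromosome libraries, against 22.3 and 21.1% over all genes. Cdx2, a trophoblast and gut factor, and Mixl1, a mesendoderm factor, were gained with folds of 4.72 to 5.96 and 3.64 to 5.57, and at Cdx2 the summits lay 236 to 350 bp inside the gene. Isl1 was kept, and none was lost. In equal lists both numbers were 2 (6.67%), 0 were gained and 1, Pax6, an eye and forebrain factor, was lost. No test compared the list with other genes. Of 30 genes of other tissues 1 was kept (Vim, of mesenchymal cells), 1 was lost (Afp, of liver and yolk sac) and 13 had no summit in any library. Of 1135 olfactory receptor genes 1027 had none, 0 were kept, 1 was lost (Olfr823) and 5 were gained, below the shares over all genes.

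The share of peaks on each chromosome differed between preparations beyond the spread of libraries for 11 of 20 chromosomes (55.0%), higher on chromosomes 8, 14, 17 and 19 and lower on 1, 2, 3, 6, 10, 12 and X in the sorted material (exact permutation p = 0.0556, 0.0926 after Benjamini-Hochberg adjustment over 20). Chromosome 8 held 6.98 and 6.72% of WT and 6.89 and 6.43% of Suv39h dn asynchronous peaks, against 9.81 and 10.7% and 8.59 and 10.3% of chromosome peaks, a log2 ratio of 0.54. Chromosome 19 went from 2.28 to 2.42% to 2.88 to 3.58% (log2 ratio 0.44) and chromosome 14 from 3.97 to 4.31% to 4.82 to 5.48% (0.35). Chromosome X held 2.91 to 3.55% of asynchronous and 1.64 to 2.49% of chromosome peaks (-0.66), but with peaks of q at or under 1e-05 only the log2 ratio was -0.21 and the ranges overlapped, at 2.56 to 3.41 and 2.00 to 2.89% (exact permutation p = 0.222). Chromosome 6 overlapped there too, while 7 and 9 became lower without overlap. Over all peaks chromosome 12 held 4.12 to 4.24 and 2.36 to 3.41% (-0.57), and chromosome 1 held 6.88 to 7.49 and 4.64 to 6.22% (-0.40). On chromosome 12 the log2 ratio was -0.83 for WT and -0.31 for Suv39h dn. Chromosome Y, which was not tested, held 0.219 to 0.591 and 0.742 to 1.87%.

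The ratio followed the GC content of the chromosome in part: over the 20 chromosomes Pearson's r was 0.59 and Spearman's rho 0.52, and r was 0.45 over the 19 autosomes. The relation was weaker in equal lists, with r 0.47, rho 0.39 and r 0.35 over autosomes, and with q at or under 1e-05, at 0.22, 0.27 and 0.21. The points share libraries, so these are descriptions. Chromosome 14, with 41.2% GC, was higher in chromosome lists although chromosome 1, with 41.1%, was lower. In equal lists 10 chromosomes did not overlap, 5 higher and 5 lower, and chromosome 1 overlapped. Peak shares are relative within a library, and the number of copies of each chromosome in the sorted material was not measured here.

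**Figure D5:**
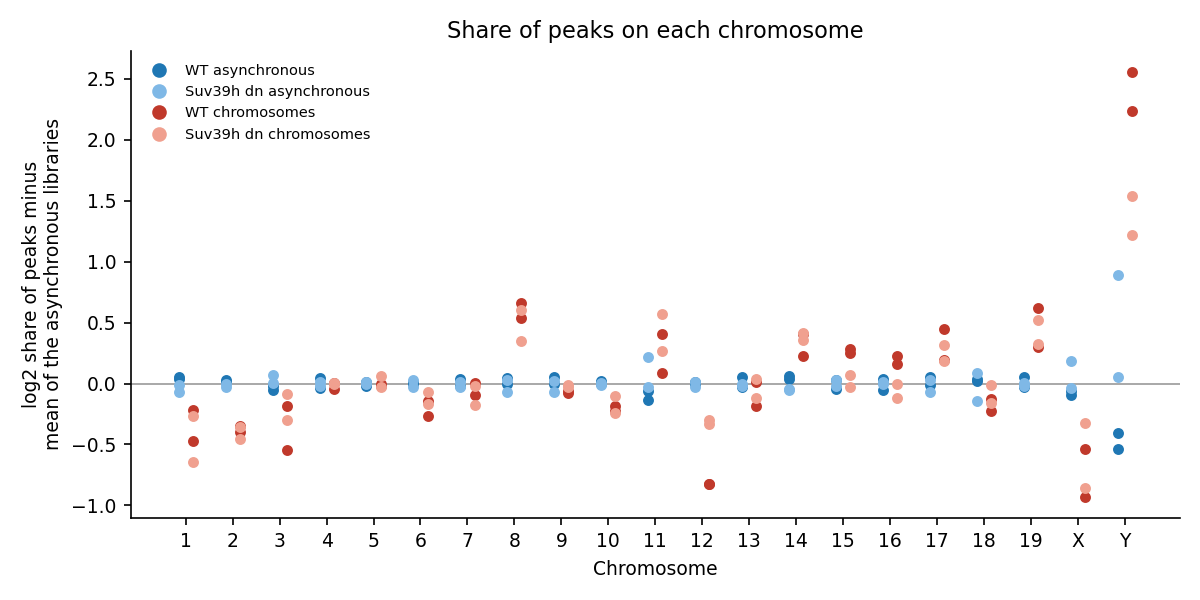
Log2 share of peaks on each chromosome minus the mean of the asynchronous libraries, one point per library, by group. Chromosome 8 stands highest (mean 0.54) and chromosome X lowest (-0.66) among the 20 chromosomes tested over all peaks, and chromosome Y was not tested.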

How the data were processed

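Peak lists of ATAC-seq libraries were analysed. Per the study's methods and the submitters' processing notes, reads were demultiplexed (bcl2fastq 2.20.0), trimmed (Trim Galore 0.4.4) and aligned to mm10 (Bowtie2 2.2.9), duplicates and mitochondrial reads were removed (SAMtools 1.2 is also named), ends were shifted for Tn5, fragments under 100 bp were kept (deepTools), and MACS2 called peaks in each library without pooling. The deposited lists hold a fold enrichment at the summit, which is a ratio of fragment pileup to local background, and a −log10 p-value and a −log10 q-value, each within its library. The smallest deposited −log10 q-value was 1.30 in every library analysed. The lists hold no read totals; fragments at summits and the background were recovered from fold and p-value, to within 0.002 in −log10 p-value.

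Summits were placed on GENCODE vM21 starts and on the RefSeq GRCm38 sequence, and base composition, motifs, repeats, genes and chromosomes were counted per library with Python 3.11.15, numpy 2.4.6, scipy 1.17.1, pandas 2.3.3 and matplotlib 3.10.9. Chromosomes were compared with asynchronous cells by exact two-sided permutation within genotype. Members and lists were chosen with earlier results of these data known. Genes named are the 6 strongest kept, lost and gained by mean percentile of fold, up to 6 of each class in each gene list, and 7 fixed genes, except that a withheld item is not reported here. The code for gene classes was run on simulated data: 200 of 200 planted lost and 200 of 200 gained genes were recovered among 21938. Apart from the planted genes, every simulated list held a peak near each start. The run thus checks the code and not how reliable the calls are in real lists. Alternatives were equal list lengths, q at or under 1e-05, other windows and distances, other permutations and leaving out each library. Same-numbered libraries were checked for shared deviations (correlation 0.12 in WT and -0.14 in Suv39h dn) and were not treated as pairs. The 4 lists of whole mitotic cells entered no test.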

Additional observations from a re-analysis of the deposited data

Results flagged for a closer look

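The share of peaks on chromosome 16 moved in opposite directions in the lines, with every WT chromosome library above and every Suv39h dn chromosome library below the asynchronous libraries of its line. The log2 ratio of chromosomes to asynchronous cells was 0.20 in WT and -0.07 in Suv39h dn, a difference of -0.27 (exact permutation p = 0.167). None of the 22 groups of 4 libraries checked for a single distant value held one.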

How the results depend on the processing

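Permuting labels over all 8 libraries without the genotype stratum (70 arrangements, smallest p 0.0286) brought to an exact p of 0.0286 the differences in fold (-1.13), GC at all, distal and start-site summits (4.37, 5.71 and 1.60 points), the GC-rich quintile (9.63) and the share upstream (-29.9), and likewise the 10 motifs and the 6 named chromosomes that did not overlap. The log2 number of peaks turned to -1.43 at q at or under 1e-05. The start-site share turned to 0.93 in equal lists and 0.20 at 2500 bp, and ranged from -2.57 to 1.60 without single libraries. The share of genes turned to -3.95 in equal lists and -18.3 at the strict q, and ranged from -5.33 to 6.77 without single libraries. YY1 turned to 1.25 in equal lists and 1.48 at the strict q, and ranged from -1.03 to 0.11 without single libraries. Kept genes numbered 825 in equal lists and 86 at the strict q, lost genes 982 and 978, and gained genes 35 at the strict q and 500 to 761 without single libraries, highest without Suv39h dn asynchronous replicate 2. Of regions in all 4 asynchronous lists, 48.5% near starts and 12.7% of distal ones were found on chromosomes in equal lists, and 26.8 and 7.95% when at least 0.5 of the region had to overlap. Equal lists and the strict q use fewer peaks, and the other causes were not tested. With the replicate block (16 arrangements, smallest p 0.125) differences such as 5.71 points of distal GC and -29.9 points upstream were as without it, and neither it nor the numbers crossed in Suv39h dn, a pairing added after seeing the data, gave a p under 0.05. Peak lists show no difference at sites below the peak threshold.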

Other observations

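Whole mitotic cells of the same lines, arrested in the same way but neither lysed in polyamine buffer nor sorted, had shorter lists, of 6495 and 13320 peaks for WT and 1746 and 14328 for Suv39h dn. Their start-site summits lay upstream of the start in 75.2 and 73.1% of cases for WT and 73.4 and 72.0% for Suv39h dn. Their distal summits had 51.3 and 50.5% GC for WT and 49.4 and 51.2% for Suv39h dn, and 15.8 to 25.8% of them were under 45% GC. The octamer was under 2.08 and 2.38% of WT and 1.66 and 2.32% of Suv39h dn summits, and the Oct4-Sox2 motif under 1.66, 2.33, 0.687 and 1.91%. Summits near starts made up 45.1 to 56.7% of their lists. Tandem repeats were under 7.6, 6.5, 10.2 and 6.0% of their 1000 strongest summits. These lists were compared with neither preparation in a test.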
